A study of Homo sapiens and Mus musculus with 12 samples.

Results

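The suppressors of cytokine signalling are the 8 genes SOCS1 to SOCS7 and CISH. They were taken by symbol from 2 tables of RNA levels, as SOCS1 to SOCS7 and CISH among the 15590 genes of human RKO cells and as Socs1 to Socs7 and Cish among the 17383 genes of mouse colon. The family was selected on the RKO values of SOCS1, which had been seen to be higher with doxycycline, so the RKO values of all 8 genes are given as a description, with no p-value, and nothing is read from which of them pass, while the colon comparison played no part in the choice and is tested. All 8 genes passed the filter on low values in both tables, which required a library mean of 1 or more.

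RKO is a human colon cancer cell line. The cells carried a stably expressed short hairpin RNA that targets ZNF280C and is switched on through a tetracycline-inducible promoter, and 3 libraries came from cells given 1 ug/ml doxycycline for 72 h and 3 from the same kind of cells without it. Both groups carried the hairpin construct, and no library of cells given doxycycline without this hairpin was analysed here, so doxycycline itself and the induced hairpin cannot be told apart. The mouse libraries were 3 from the colon of Zfp280c knock-out mice and 3 from the colon of wild-type mice, all C57BL/6J and 12 weeks of age. Zfp280c is the mouse counterpart of ZNF280C, a zinc finger protein. The labels give neither the stretch of colon taken, nor the sex of the mice, nor how the knock-out allele was made, and they do not say whether replicates were separate cultures or whether mice were pooled, so p-values measure the spread between these libraries.

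SOCS proteins are brakes on the JAK-STAT pathway, in which a cytokine receptor activates JAK kinases and these activate STAT transcription factors. Several SOCS genes are themselves switched on by STATs, which closes a negative feedback loop. Each protein carries an SH2 domain, which binds phosphorylated tyrosine, and a SOCS box, which joins elongins and cullin 5 into a ubiquitin ligase. SOCS1 and SOCS3 also inhibit JAK kinases directly. In the gut, SOCS1 is known for restraining interferon gamma signalling and SOCS3 for restraining STAT3 signalling in the epithelium.

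Promoter sequence is shown for the 3 members whose RKO groups did not overlap, since the first of these, SOCS1, is the gene for which the family was chosen. RefSeq promoters of build GRCh38.p14 were found for 5 of the 8 members. Each line gives the 250 bases before the transcript start, 5′ to 3′ in the direction of transcription, at chr16:11256205-11256454 (minus strand) for SOCS1, chr3:50611775-50612024 (minus strand) for CISH and chr14:55026986-55027235 (plus strand) for SOCS4. Capitals mark matches to TTCNNNGAA, the pattern STATs bind, and to GAAA, any 2 bases and GAAA, a pattern of interferon regulatory factors, searched on both strands.
SOCS1: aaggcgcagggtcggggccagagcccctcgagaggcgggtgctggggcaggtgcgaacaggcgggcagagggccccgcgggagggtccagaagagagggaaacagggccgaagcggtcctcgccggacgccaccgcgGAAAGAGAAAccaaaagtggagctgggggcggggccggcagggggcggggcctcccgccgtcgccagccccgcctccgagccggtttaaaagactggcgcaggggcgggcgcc
CISH: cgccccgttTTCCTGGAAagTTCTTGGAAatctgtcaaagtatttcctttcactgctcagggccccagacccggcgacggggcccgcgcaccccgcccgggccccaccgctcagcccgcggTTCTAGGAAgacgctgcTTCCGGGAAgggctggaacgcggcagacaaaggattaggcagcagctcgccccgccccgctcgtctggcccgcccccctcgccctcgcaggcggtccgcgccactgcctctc
SOCS4: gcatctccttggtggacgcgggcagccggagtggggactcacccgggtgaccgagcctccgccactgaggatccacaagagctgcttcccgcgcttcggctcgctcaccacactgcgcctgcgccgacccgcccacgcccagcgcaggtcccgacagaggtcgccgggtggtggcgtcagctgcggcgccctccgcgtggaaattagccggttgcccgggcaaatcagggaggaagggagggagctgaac

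The SOCS1 window held 1 match to the interferon regulatory factor pattern, GAAAGAGAAA, which begins 113 bases before the start, and 0 matches to the STAT pattern. The CISH window held 4 matches to the STAT pattern. TTCCTGGAA and TTCTTGGAA lie 241 and 230 bases before the start, and TTCTAGGAA and TTCCGGGAA lie 129 and 112 bases before it. The SOCS4 window held no match to either pattern, and nor did the windows of SOCS3 and SOCS6, which are not shown. The SOCS3 windows lie at chr17:78359668-78359917 and chr17:78360926-78361175 (minus strand), and the sequence between them was not searched for SOCS3. Among 35116 promoter windows of the same length, 6.57% held the STAT pattern and 3.02% the interferon regulatory factor pattern, with no overlap between matches of the 2 patterns in the windows shown. At least 4 matches to the STAT pattern were found in 5 of the 35116 windows, a threshold chosen after the CISH count was seen. A match describes letters only. The windows were rich in G and C, at 74.0% for SOCS1, 68.8% for CISH and 70.0% for SOCS4, against a median of 58.0% over all windows.

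Summed values per library ran from 9050160.5 to 9195210.8 in the RKO table and from 491900.5 to 507206.3 in the colon table, and the number of reads behind them is unknown. RKO values are called signal and were treated as not per length, although such sums cannot show whether length was divided out. Colon values are FPKM, fragments scaled to transcript length and to library size. ZNF280C averaged 101 ± 22.1 in doxycycline-treated and 197 ± 27.5 in untreated RKO cells (SD, n = 3 each; log2 fold change -0.98 ± 0.15 SE, limma adjusted p = 0.0276), a call that was lost in 5 of the 6 fits with 1 library left out. Zfp280c averaged 0.133 ± 0.0751 FPKM in knock-out and 2.63 ± 0.479 FPKM in wild-type colon (SD, n = 3 each; log2 fold change -1.67 ± 0.14 on the log2(FPKM + 1) scale, limma adjusted p = 0.123). Of 8 epithelial markers, 5 were in the RKO table, EPCAM among them, and all 8 were in the colon table, where their summed level was 11046 to 12077 FPKM in knock-out and 9582 to 11932 FPKM in wild-type colon.

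Libraries stood apart in both tables. In the RKO table, the second libraries of both groups shared exactly equal values in 310 genes, and the third doxycycline-treated and first untreated libraries in 526 genes, whereas all other pairs shared 0. Where libraries that share equal values were fitted as a block, the libraries left over, doxycycline-treated library 1 and untreated library 3, also formed a block. That pair shared 0 equal values, so its pairing was assumed. In the colon, a position score was taken as the mean log2 level of HOX genes of the proximal colon (3 genes) minus that of HOX genes of the distal colon (4 genes). It stood at 2.53, 0.92 and 1.39 in knock-out libraries, against -3.08, 1.53 and -4.98 in wild-type libraries. Wild-type libraries 1 and 3 were therefore apart from the other 4, and colon fits were repeated without wild-type library 2 and with the score as a covariate. Without wild-type library 2, all wild-type scores lie below all knock-out scores, so genotype and colon position cannot be told apart in that fit.

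In RKO cells the family did not move one way. Of the 8 members, SOCS1 and CISH had higher signal in every doxycycline-treated library than in any untreated one, SOCS4 had lower signal in every treated library, and the ranges of the other 5 overlapped. Over all genes, 21.9% did not overlap, 8.65% higher and 13.3% lower. In the fit over all 15590 genes, SOCS1 was the only member of 8 past an adjusted p of 0.05, where the background is 1.14% of genes, and the count was 0 in each of the 6 fits with 1 library left out, with libraries that share equal values as a block and after removal of a trend on transcript GC content. Nothing is read from these counts, because the same contrast chose the family. The median log2 fold change was -0.03 over the family, with 4 members positive and 4 negative, and -0.0121 over all genes, of which 44.9% were positive.

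SOCS1, which binds and blocks JAK kinases, had signal of 29.0, 27.7 and 29.3 in doxycycline-treated cells, against 16.1, 19.2 and 18.7 in untreated cells. The treated libraries lay close together and all stood above the highest untreated one. The means were 28.6 ± 0.816 in treated and 18.0 ± 1.68 in untreated cells (SD, n = 3 each), so the treated level was 159% of the untreated one, with a log2 fold change of 0.65 ± 0.11 (SE). Leaving out 1 library at a time gave 0.57 to 0.69.

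CISH, a STAT5 target that restrains STAT5 signalling, had signal of 58.8, 60.4 and 54.6 in treated cells, against 46.1, 45.4 and 52.4 in untreated cells. The lowest treated library was just above the highest untreated one. The means were 57.9 ± 3.01 and 48.0 ± 3.87 in treated and untreated cells (SD, n = 3 each), with a log2 fold change of 0.27 ± 0.09 (SE), which stayed between 0.23 and 0.33 with 1 library left out.

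SOCS2, known for limiting growth hormone signalling, had signal of 136, 125 and 145 in treated cells, against 103, 131 and 127 in untreated cells. These groups overlapped, and the log2 fold change of 0.18 ± 0.10 (SE) was 0.07 at its lowest with 1 library left out. Its antisense neighbour SOCS2-AS1 had 8.08, 9.07 and 10.1 in treated cells, against 7.61, 6.16 and 5.26 in untreated cells (log2 fold change 0.46). Whether counting used strand is not stated, so reads of SOCS2 and SOCS2-AS1 cannot be told apart with certainty.

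SOCS3, which restrains STAT3 signalling through the receptor subunit gp130, had signal of 140.1, 141 and 144 in treated cells, against 148, 134 and 141 in untreated cells. The means were 141 ± 1.91 in treated and 141 ± 7.05 in untreated cells (SD, n = 3 each), and the log2 fold change was 0.01 ± 0.06 (SE). SOCS1 and SOCS3 are the 2 members that inhibit JAK kinases directly. The difference between them was not tested, and nothing is read from it, because SOCS1 was chosen for its rise in this contrast.

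The 4 remaining members are less tied to cytokine induction. SOCS4, a member linked to the epidermal growth factor receptor, had signal of 430.3, 407 and 447 in treated cells, against 483, 467 and 454 in untreated cells. Every treated library was below every untreated one, but the gap was small, with means of 428 ± 19.9 in treated and 468 ± 14.8 in untreated cells (SD, n = 3 each) and a log2 fold change of -0.13 ± 0.05 (SE). SOCS5, also linked to that receptor, averaged 176 ± 1.09 in treated and 183 ± 9.17 in untreated cells (-0.06 ± 0.06). SOCS6, which binds the receptor tyrosine kinase KIT, averaged 217 ± 11.6 in treated and 232 ± 12.5 in untreated cells (-0.10 ± 0.06). SOCS7, which binds the adaptor NCK, averaged 101 ± 11.5 in treated and 109 ± 8.75 in untreated cells (-0.10 ± 0.10). The treated mean was the lower in all 4, and 3 of the 4 had overlapping groups.

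**Figure D1:**
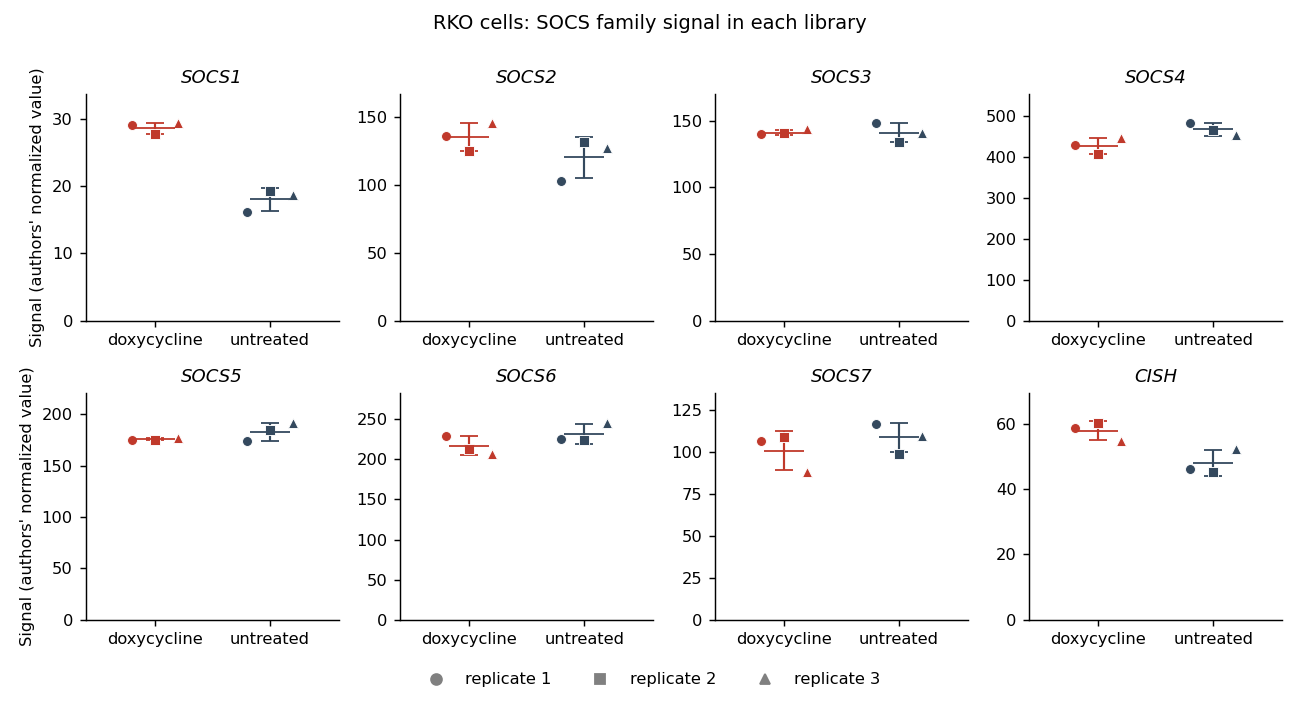
Signal of the 8 SOCS family genes in each RKO library, doxycycline-treated left of untreated, with 1 panel a gene; points are libraries and bars the mean ± SD of 3. SOCS1 and CISH sit higher in all 3 treated libraries and SOCS4 sits lower, and the other 5 overlap.

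Log2 fold changes in the RKO table ran with the base composition of transcripts over all genes, and in part within the family. SOCS1, the highest, has a transcript GC content of 69.1%, CISH 58.6% and SOCS3 60.0%, whereas SOCS4, SOCS5 and SOCS6 have 35.3%, 37.5% and 38.0%, against a median of 48.6% over all genes matched to a transcript. The members do not follow it strictly: SOCS2 has 47.3% and the third highest fold change, SOCS7 has 52.1% and stands at -0.10, and SOCS3 stands below CISH. Across 13118 genes, which are not independent replicates, the Spearman correlation between log2 fold change and GC content was 0.45. After a trend on GC content was removed, the log2 fold change was 0.57 ± 0.12 for SOCS1, 0.24 ± 0.09 for CISH and -0.05 ± 0.05 for SOCS4 (SE). SOCS3 then stood at -0.03 ± 0.06, SOCS5 at 0.00 ± 0.05 and SOCS6 at -0.03 ± 0.06. The part of base composition in these values was otherwise not tested.

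Levels of different genes can be compared only per length, so the RKO signal was divided by the length in kilobases of the longest coding transcript that GENCODE gives for the gene. The order below holds only if the signal was not already per length, which was not tested. SOCS4 was the highest member, at 63.1 ± 2.94 per kilobase in treated and 69.0 ± 2.18 in untreated cells (SD, n = 3 each). SOCS3 followed with 51.7 ± 0.70 and 51.5 ± 2.58 in treated and untreated cells. SOCS6, SOCS5 and SOCS2 stood between 36.3 and 37.0 in treated cells, where neighbours overlapped, and between 32.2 and 39.7 in untreated cells, where SOCS6 and SOCS5 overlapped. CISH came next at 26.7 ± 1.39 and 22.1 ± 1.79. SOCS1 and SOCS7 were lowest and stood in a different order in the 2 groups: SOCS1 at 16.1 ± 0.457 above SOCS7 at 12.9 in treated cells, and SOCS7 at 13.8 above SOCS1 at 10.1 ± 0.944 in untreated cells, with ranges that did not overlap in either group. Nothing is read from that change of order, because SOCS1 was chosen for its rise in this contrast.

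The pattern of SOCS1 over the 6 RKO libraries was compared with that of every other symbol in the table, by the root mean square difference of log2(signal + 1) after each gene was centred on its own mean. The closest 5 of 15582 genes were FBXO24 at 0.066, DNAH1 at 0.07, CTD-2571L23.6 at 0.075, IMPDH1P4 at 0.078 and RP11-161M6.2 at 0.083, where SOCS1 itself varied by 0.33 about its mean. No other SOCS gene and no gene of the lists described next was among them. With only 5 of 15582 genes kept, nothing is read from that absence.

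The rest of the pathway was read in lists of known components. Over all RKO genes, 17% (2656 of 15590) had an unadjusted p under 0.05, against which the counts of the lists are to be read. Among the JAK kinases, 0 of 4 passed in either direction, by limma with adjustment over all genes, and 2 had an unadjusted p under 0.05. JAK3, a kinase of the common gamma chain receptors, averaged 67.1 ± 5.67 in treated and 51.7 ± 2.14 in untreated cells (SD, n = 3 each; log2 fold change 0.37 ± 0.09 SE, limma adjusted p = 0.0764). Its treated libraries, at 61.1, 72.3 and 67.8, were all above its untreated ones, at 50.1, 51.0 and 54.1. TYK2, a kinase of interferon receptors, had a log2 fold change of 0.14 (limma adjusted p = 0.115), also without overlap.

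Of the STAT factors, 0 of 6 passed and 1 had an unadjusted p under 0.05. Among the receptors, 0 of 17 passed and 4 had an unadjusted p under 0.05. IL6ST, which encodes gp130, had signal of 741, 645 and 740.4 in treated cells, against 849, 772 and 887 in untreated cells (log2 fold change -0.24 ± 0.07 SE, limma adjusted p = 0.107). Of the same 4 receptors, IFNAR1 was also lower, at -0.14, and IL15RA and IL10RA were higher, at 0.17 and 0.30. Of the cytokine ligands, 0 of 6 passed and 0 had an unadjusted p under 0.05.

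Among the other inhibitors of the pathway, 0 of 10 passed and 4 had an unadjusted p under 0.05. PIAS1, a member of the protein inhibitors of activated STATs, had signal of 417, 429 and 420.4 in treated cells, against 497, 467 and 514 in untreated cells (log2 fold change -0.22 ± 0.05 SE, limma adjusted p = 0.0542). PIAS3, of the same family, went the other way, with 419, 426 and 438 in treated and 379, 378 and 396 in untreated cells (0.15 ± 0.04 SE, limma adjusted p = 0.116). Of the elongin and cullin partners of the SOCS box, 0 of 9 passed, 0 had an unadjusted p under 0.05, and 7 of 9 were negative with a median of -0.03. CUL5, the cullin of these ligases, stood at -0.10 (limma adjusted p = 0.391). Among the proteins that SOCS members bind, 0 of 8 passed and 1, the adaptor NCK1, had an unadjusted p under 0.05 (-0.17, limma adjusted p = 0.156).

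Targets of interferon gamma, STAT3 and STAT5 showed no common direction in RKO cells. Of the interferon gamma targets, 0 of 10 passed, 1 had an unadjusted p under 0.05, and 5 were positive and 5 negative. Of the STAT5 targets, 0 of 7 passed, 3 had an unadjusted p under 0.05, and 5 were negative. With the GC trend removed 1 of them passed, the kinase gene PIM3, at -0.219 (limma adjusted p = 0.04), against -0.15 before (limma adjusted p = 0.104). Of the STAT3 targets, 1 of 12 passed, lower, and 0 passed higher. That gene was NFIL3, a transcription factor, with signal of 225, 247 and 228 in treated cells, against 267, 305 and 309 in untreated cells (log2 fold change -0.33 ± 0.07 SE, limma adjusted p = 0.0498). Its call was lost in all 6 fits with 1 library left out, with adjusted p of 0.0677 to 0.184, and at 0.064 with the GC trend removed. It was also lost with libraries that share equal values as a block (0.213), with median centring (0.0528), with quantile normalization (0.0626) and with a pseudocount of 5 (0.0509). The share of all genes called lower was 0.757%.

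In mouse colon, 0 of 8 members passed an adjusted p of 0.05 by limma over 11366 genes, where 0 genes of any kind passed and 1420 had an unadjusted p under 0.05. Of the members, 6 were positive and 2 negative, with a median log2 fold change of 0.20, against -0.0242 over all genes, of which 44.6% were positive. Socs5 was the only member whose groups did not overlap, and it was lower, as were 9.79% of all genes, with 16.9% not overlapping in either direction. Without wild-type library 2, Socs3 and Socs6 passed in the higher direction, 2 of 8 members, where 9.21% of 11344 genes passed higher, 7.19% lower and 16.4% in all.

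Socs1 had 4.23, 2.25 and 3.55 FPKM in knock-out colon, against 2.69, 3.64 and 1.93 FPKM in wild-type colon. The groups overlapped, with the second knock-out library below 2 of the wild-type ones, and the log2 fold change was 0.21 ± 0.24 (SE; 95% interval -0.36 to 0.77; limma adjusted p = 0.696). It was 0.0422 without wild-type library 3, 0.0603 without knock-out library 1 and 0.403 without knock-out library 2. That interval holds the 0.65 of SOCS1 in RKO cells as well as 0, on a table with another scale. Without wild-type library 2 it was 0.374, and with the position score as a covariate Socs1 stood at -0.22 ± 0.22.

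Socs3 had the widest spread of the family, at 5.28, 5.55 and 4.99 FPKM in knock-out colon, against 3.59, 6.67 and 2.42 FPKM in wild-type colon. The 3 knock-out libraries lay within a coefficient of variation of 5.31%, whereas the wild-type ones had 51.9% and stood on either side of them. The log2 fold change was 0.34 ± 0.28 (SE; 95% interval -0.33 to 1.01; limma adjusted p = 0.587). It was 0.66 ± 0.15 (limma adjusted p = 0.0311) without wild-type library 2 and -0.28 ± 0.16 with the position score as a covariate.

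Socs2 had 19.99, 14.29 and 18.8 FPKM in knock-out colon, against 10.96, 19.53 and 15.73 FPKM in wild-type colon (log2 fold change 0.21 ± 0.22 SE, limma adjusted p = 0.674). Cish had 5.79, 4.58 and 5.66 FPKM in knock-out colon, against 6.25, 4.54 and 6.76 FPKM in wild-type colon (-0.10 ± 0.16 SE, limma adjusted p = 0.779). Both genes, which restrain STAT5 signalling, had overlapping groups, and both turned sign with the position score as a covariate, to -0.09 ± 0.25 for Socs2 and 0.14 ± 0.17 for Cish.

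Socs5 had 2.7, 2.2 and 2.74 FPKM in knock-out colon, against 3.53, 3.18 and 5.26 FPKM in wild-type colon. Every knock-out library was below every wild-type one, and the knock-out mean of 2.55 ± 0.301 FPKM was 63.8% of the wild-type mean of 3.99 ± 1.11 FPKM (SD, n = 3 each). The log2 fold change was -0.47 ± 0.17 (SE; 95% interval -0.89 to -0.06; limma adjusted p = 0.396). An exact two-sided permutation test gave p = 0.1, the smallest value that 3 against 3 libraries allow, and p = 0.2 to 0.6 for the other 7 members. Socs5 kept its sign without wild-type library 2 (-0.59 ± 0.17, limma adjusted p = 0.0627) and with the position score as a covariate (-0.22 ± 0.19).

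Socs6 had 15.44, 17.33 and 18.29 FPKM in knock-out colon, against 13.28, 18.36 and 11.79 FPKM in wild-type colon (log2 fold change 0.24 ± 0.16 SE, limma adjusted p = 0.529). Without wild-type library 2 it stood at 0.41 ± 0.11 (limma adjusted p = 0.048), and with the position score as a covariate at -0.07 ± 0.15. Socs4 had 7.43, 9.75 and 8.86 FPKM in knock-out colon, against 8.16, 6.85 and 7.41 FPKM in wild-type colon (0.19 ± 0.12 SE, limma adjusted p = 0.5), and was 0.31 ± 0.15 with that covariate. Socs7 had the narrowest spread, with 3.36, 3.2 and 3.67 FPKM in knock-out colon, against 3.31, 3.18 and 3.26 FPKM in wild-type colon (0.05 ± 0.09 SE; 95% interval -0.17 to 0.28; limma adjusted p = 0.814), and was 0.0401 without wild-type library 2 and 0.0682 with the covariate.

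**Figure D2:**
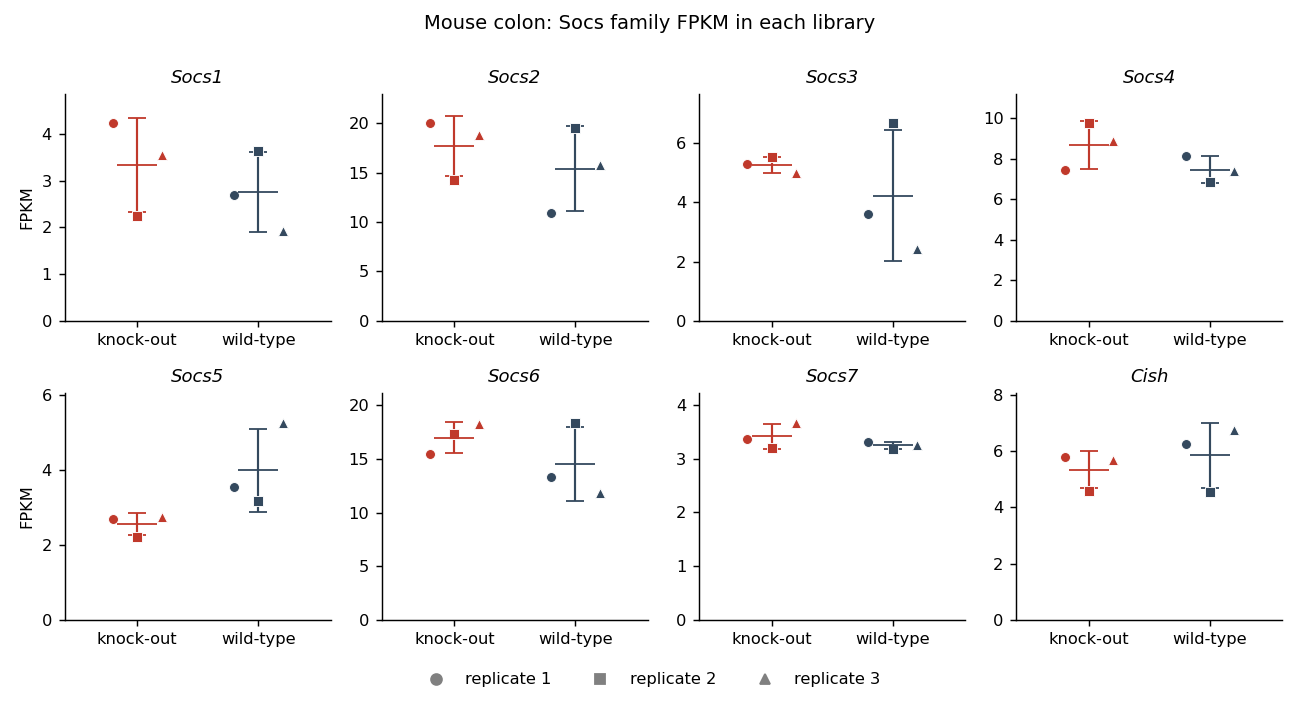
FPKM of the 8 SOCS family genes in each colon library, Zfp280c knock-out left of wild-type, with 1 panel a gene; points are libraries and bars the mean ± SD of 3. Socs5 alone has groups apart, and wild-type library 2 lies above the knock-out mean for Socs1, Socs2, Socs3 and Socs6.

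**Figure D3:**
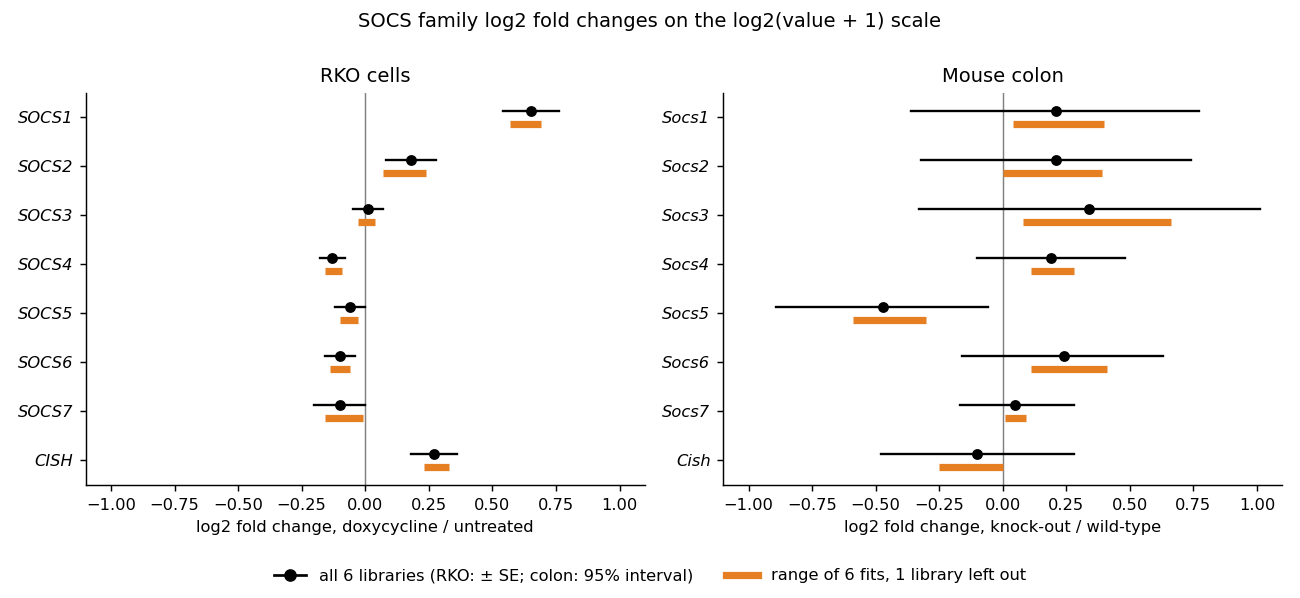
Log2 fold changes of the 8 members, doxycycline-treated over untreated RKO cells and knock-out over wild-type colon; black points are the values, with ± SE in RKO and the 95% interval in colon, and orange bars span the 6 fits with 1 library left out. SOCS1 in RKO stays between 0.57 and 0.69, and the colon interval of Socs5, -0.89 to -0.06, is the only one of the 8 that leaves out 0.

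Socs3 and Socs6 were lower in wild-type libraries 1 and 3 than in any of the other 4 libraries, and the lowest library of Socs1 and of Socs2 was also 1 of those 2. Socs3 had 4.99 to 6.67 FPKM in those 4 libraries, against 3.59 and 2.42 FPKM in wild-type libraries 1 and 3. Socs5 and Cish were higher in wild-type libraries 1 and 3 than in any of the others, with Cish at 4.54 to 5.79 FPKM in the others and at 6.25 and 6.76 FPKM in those 2. With the position score as a covariate the family median was -0.08, and without wild-type library 2 it was 0.25. With 2 of 3 wild-type libraries at low scores and none of the knock-out ones, colon position and genotype cannot be fully told apart. In the fit without wild-type library 2 they cannot be told apart at all.

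**Figure D4:**
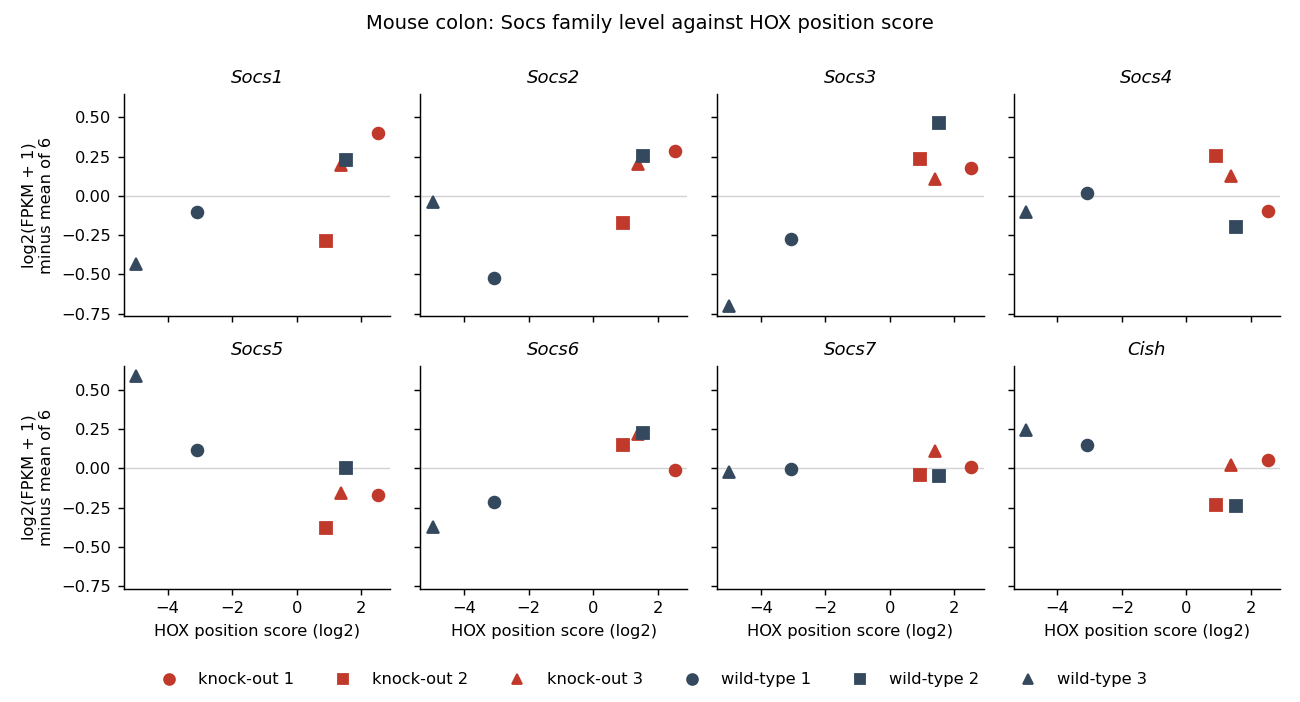
Level of each member in each colon library, as log2(FPKM + 1) minus its mean over the 6 libraries (y axis), against the HOX position score (x axis, higher meaning more proximal HOX expression); points are libraries, coloured by genotype. Wild-type libraries 1 and 3 stand at -3.08 and -4.98 and wild-type library 2 at 1.53 among the knock-out libraries.

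Because the colon table is per length, members can be ordered directly. Socs2 averaged 17.7 ± 3.01 FPKM in knock-out and 15.4 ± 4.29 FPKM in wild-type colon, and Socs6 17.0 ± 1.45 and 14.5 ± 3.44 FPKM (SD, n = 3 each), with overlapping ranges in both groups. Socs4 came next at 8.68 ± 1.17 and 7.47 ± 0.657 FPKM, apart from its neighbours in both groups. Cish at 5.34 and Socs3 at 5.27 FPKM overlapped in knock-out colon, and Socs7, Socs1 and Socs5, between 2.55 and 3.41 FPKM, formed the lowest stretch there. In wild-type colon, Cish, Socs3, Socs5, Socs7 and Socs1 overlapped from neighbour to neighbour. Socs1 was thus among the lowest members in both tables. Socs3 stood next to the top in RKO cells, by signal per kilobase, and in the middle of the order in colon. The colon is a mixture of cell types, in which fewer cells of a type and less RNA per cell cannot be told apart.

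By the same measure of likeness over 6 libraries and 11366 genes, the closest to Socs1 were P2rx2 at 0.035, Dtl at 0.041, Kif5a at 0.052, Clspn at 0.059 and Rinl at 0.06, where Socs1 varied by 0.3 about its mean. P2rx2, Kif5a, Clspn and Rinl averaged 1.18 to 1.37 FPKM in knock-out and 0.863 to 1.03 FPKM in wild-type colon. The closest to Socs3, the member with the widest range, were Mpp6 at 0.062, Nsg1 at 0.073, H2-Q10 at 0.08, Pla2g12a at 0.084 and Tox at 0.086, where Socs3 varied by 0.38.

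In the colon, 0 genes passed in any of the pathway lists, by limma with adjustment over all genes. Over all colon genes, 12.5% (1420 of 11366) had an unadjusted limma p under 0.05, against which list counts are to be read. Of the JAK kinases, 0 of 4 had an unadjusted p under 0.05, and Jak1 stood at -0.06. Of the STAT factors, 2 of 6 did. Stat2, a factor of type I interferon signalling, had 33.12, 21.65 and 24.34 FPKM in knock-out colon, against 12.62, 23.33 and 10.01 FPKM in wild-type colon (log2 fold change 0.81 ± 0.31 SE, limma adjusted p = 0.396). Wild-type library 2 lay with the knock-out libraries, and without it Stat2 passed (1.14, limma adjusted p = 0.0116). Once the position score was added to the model, Stat2 stood at 0.0949 ± 0.134 SE (limma adjusted p = 0.991).

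The interferon gamma targets were the list with the largest share of positive genes among the 10 pathway lists, 25 of 26 tested, with a median log2 fold change of 0.53 against -0.0242 over all genes. Of the 26, 12 had an unadjusted p under 0.05, and 7 had groups that did not overlap, all higher in knock-out colon, where 7.13% of all genes were higher in this sense. Ifi47, an interferon-induced GTPase, had 55.91, 39.88 and 43.6 FPKM in knock-out colon, against 9.97, 31.43 and 3.69 FPKM in wild-type colon (1.99 ± 0.64 SE, limma adjusted p = 0.396). Irgm2, Irgm1 and Tap1, which act in defence against microbes inside cells and in antigen presentation, stood at 0.68, 0.93 and 0.80. With the position score as a covariate, Ifi47 stood at 0.447, Irgm2 at 0.341, Irgm1 at 0.301 and Tap1 at 0.338, and without wild-type library 2 all 4 passed. Without wild-type library 2, 11 of the list passed, all higher, and with the position score as a covariate the median was 0.26 and 0 passed. The list's mean log2 level was 4.79, 4.06 and 4.49 in knock-out libraries, against 3.84, 4.12 and 3.66 in wild-type libraries, so the groups overlapped.

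Of the remaining regulators, Usp18, a brake on type I interferon signalling, had 25.44, 14.06 and 16.4 FPKM in knock-out colon, against 3.42, 15.07 and 1.46 FPKM in wild-type colon (1.77 ± 0.66 SE, limma adjusted p = 0.396). It was 1 of 2 among the 12 other inhibitors with an unadjusted p under 0.05. Without wild-type library 2, Usp18 passed (2.53, limma adjusted p = 0.00502). Once the position score was added to the model, Usp18 stood at 0.178 ± 0.119 SE (limma adjusted p = 0.991). The other of the 2, Pias2, went the opposite way (-0.54 ± 0.22 SE, limma adjusted p = 0.396). Pias2 had 7.75, 6.22 and 8.74 FPKM in knock-out colon, against 12.5, 7.96 and 14.56 FPKM in wild-type colon. Without wild-type library 2, Pias2 passed as lower (-0.77, limma adjusted p = 0.019). In the model that includes the score, Pias2 stood at -0.121 ± 0.199 SE (limma adjusted p = 0.991). Of the ligase partners, 8 of 9 were negative and 1, the RING protein gene Rnf7, had an unadjusted p under 0.05, with 36.17, 33.76 and 34.89 FPKM in knock-out colon, against 44.54, 40.01 and 51.85 FPKM in wild-type colon. Rnf7 did not overlap between groups (-0.36 ± 0.11 SE, limma adjusted p = 0.396). Of the 21 receptors and 3 ligands tested, 4 and 1 had an unadjusted p under 0.05, among them Prlr, the prolactin receptor gene, at 0.84 and Il7, a lymphocyte cytokine gene, at -0.43. Without wild-type library 2, Rnf7, Prlr and Il7 passed (limma adjusted p = 0.0238, 0.0173 and 0.0192), and with the position score as a covariate they stood at -0.19, 0.0933 and -0.0542.

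Targets of STAT3 and STAT5 had no common direction. Of 14 STAT3 targets, 6 were positive and 8 negative, and 4 had an unadjusted p under 0.05. Reg3b, an antimicrobial lectin gene, had 448.78, 307.87 and 80.17 FPKM in knock-out colon, against 0.29, 208.06 and 0.22 FPKM in wild-type colon, while Cebpd, a transcription factor gene, had 2.98, 2.8 and 4.02 FPKM in knock-out colon, against 9.59, 3.92 and 12.93 FPKM in wild-type colon. Both split wild-type libraries 1 and 3 from the other 4, and both passed without wild-type library 2 (7.48 and -1.52), while with the position score as a covariate Reg3b stood at 0.494 and Cebpd at -0.25. Of 7 STAT5 targets, 3 were positive and 4 negative, and 1 had an unadjusted p under 0.05. Of 11 proteins bound by SOCS members, 6 were positive and 5 negative, and 0 had an unadjusted p under 0.05.

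**Figure D5:**
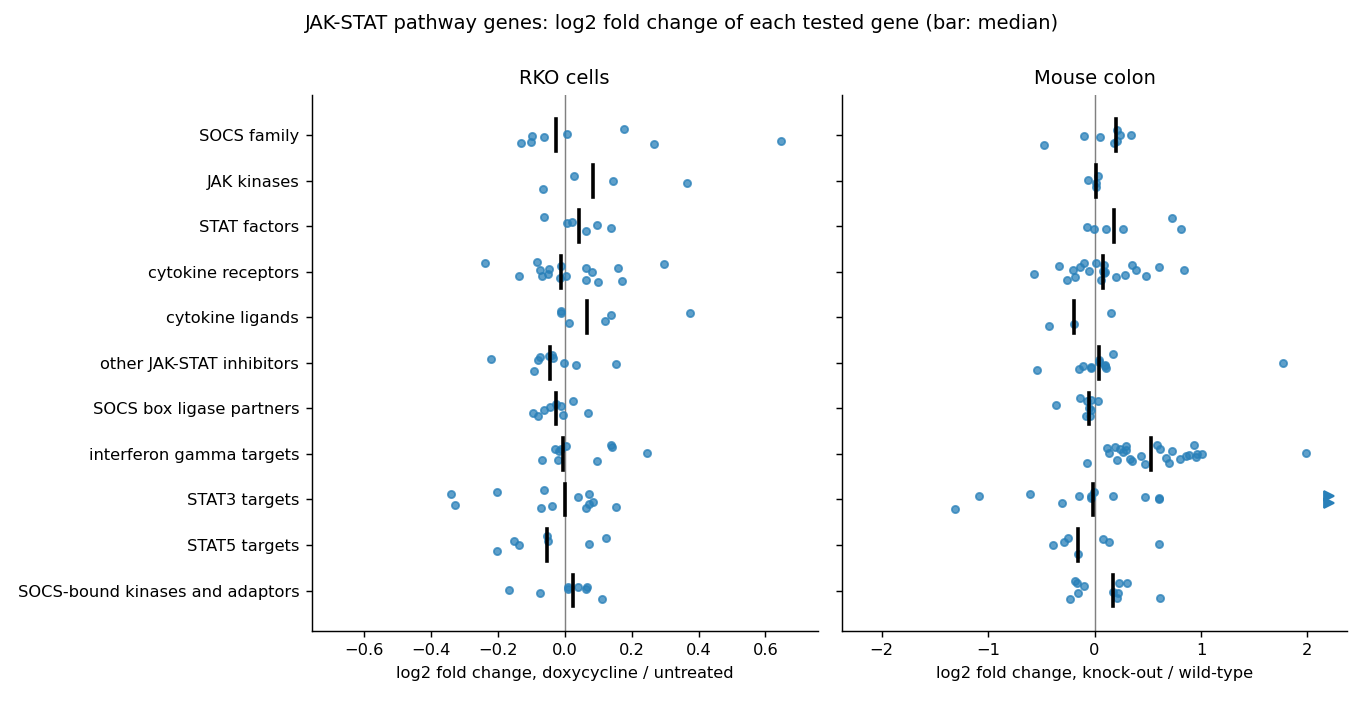
Log2 fold changes of all tested genes in each JAK-STAT list, doxycycline-treated over untreated RKO cells on the left and knock-out over wild-type colon on the right; points are genes and bars list medians, and the right-pointing triangles are 2 colon genes beyond the axis limit. In colon the interferon gamma targets have a median of 0.53, and the SOCS family 0.20.

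Markers of other cell types differed between the colon libraries. The summed level of 7 T cell markers was 13.8 to 22.6 FPKM in knock-out and 6.73 to 15.6 FPKM in wild-type colon, with 6 of 6 tested markers positive. The sum of 8 macrophage markers was 19.9 to 34.6 FPKM in knock-out and 25.7 to 45.6 FPKM in wild-type colon, and that of 6 B and plasma cell markers 51.9 to 93.8 FPKM and 79.9 to 235 FPKM. The 6 smooth muscle markers summed to 461 to 739 FPKM in knock-out and 355 to 577 FPKM in wild-type colon, and the 5 adipocyte markers to 43.0 to 81.3 FPKM and 6.21 to 31.6 FPKM, with Lep listed at 0 in wild-type libraries 1 and 3. The 5 endothelial markers summed to 2.42 to 3.82 FPKM and 3.22 to 5.85 FPKM, and the 5 neutrophil markers to 3.06 to 3.78 FPKM and 2.98 to 3.65 FPKM in knock-out and wild-type colon. All 6 tested macrophage and all 6 B and plasma cell markers were negative. All 6 smooth muscle and all 3 tested adipocyte markers were positive. With the position score as a covariate, the median log2 fold change moved from 0.56 to 0.06 for T cell markers. It moved from -0.36 to -0.04 for macrophage, -0.74 to -0.15 for B and plasma cell and 0.55 to 0.13 for smooth muscle markers. For adipocyte markers it moved from 2.1 to 1.4. The part of these cell types in the levels of the SOCS genes was not tested. In the RKO table the immune lists were all but empty, with 1 of 7 T cell markers and 1 of 8 macrophage markers present and 0 of the B cell and neutrophil markers.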

How the data were processed

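RNA was measured in 12 libraries made from polyadenylated RNA with random priming, per the labels. HISAT, Bowtie2, HTSeq, edgeR and the build hg19 are named in the submitters' processing notes. Versions, roles and a mouse build are not given in the sources used here. The deposited RKO table is labelled FPKM after ComBat, a batch adjustment, but the column sums contradict FPKM, so its values are called signal, after the authors' normalization and batch adjustment. The colon table holds FPKM as computed by the authors, per the file headers, to 2 decimals. It could not be judged how batch adjustment affected the spread between RKO libraries. Read depth is unknown, so no counting interval is given.

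Each table was analysed alone. Values were taken as log2(value + 1), which understates changes of low genes, genes under a mean of 1 were dropped, which left 15590 RKO and 11366 colon genes, and the test was limma 3.58.1 (R 4.3.3) with a variance trend and Benjamini-Hochberg adjustment over all genes at a threshold of 0.05. The same code was tested on simulated data. Single colon genes were also compared by exact two-sided permutation. Transcript GC content and length were those of the longest GENCODE transcript, by symbol (12539 genes) or synonym (579), 84.1% of RKO genes, and the GC trend was a lowess of span 0.3. Promoter windows were searched with Python 3.11.15. The design had assumed a normalized value in the RKO table and FPKM in the colon table, and its test was kept. The family members, gene lists and tests were chosen with earlier results of these data known. Named in each pathway list were all called genes and otherwise up to 4 with the lowest unadjusted p, of which some are described. In the pathway lists, 1 gene that the rule names is not reported here, and the lists were counted with it.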

Additional observations from a re-analysis of the deposited data

How the results depend on the processing

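In RKO cells, the count of genes passing moved from 178 to 1 with a replicate block. It was 0 with libraries that share equal values as a block (1670 at an unadjusted limma p under 0.05). That fit also took doxycycline-treated library 1 and untreated library 3, which shared 0 equal values, as a block. With the GC trend removed, the count was 97 in the 13118 genes with a GC content. In those genes uncorrected it was 214, an alternative added after seeing the data. With 1 library left out, the count was between 1 and 24. The 178 were 60 higher and 118 lower, against 72 and 59 with median centring and 69 and 62 with quantile normalization. SOCS1 kept its direction in 16 of 16 alternatives but lost its call in 9 of them. SOCS3 turned to -0.0291 and SOCS5 to 0.0041 with the GC trend removed, and SOCS3 to -0.00388 without doxycycline library 3 and -0.0283 without untreated library 2, within a range up to 0.0433. In colon, leaving out 1 library gave 0 to 1861 genes, the highest without wild-type library 2. With the position score as a covariate, Socs1 turned to -0.219, Socs2 to -0.0883, Socs3 to -0.28, Socs6 to -0.0665, Cish to 0.14, Jak1 to 0.133, Pim1 to -0.0272 and Lck to -0.0772, and Socs2 was -0.000822 without wild-type library 1 and 0.389 without wild-type library 2. For these reversals the cause was not tested. Over all 8 members, 115 RKO values kept direction and side of the threshold, 4 turned sign and 9 lost a call, all 9 for SOCS1. No other member was past the threshold in the main RKO fit, so only SOCS1 could lose a call. In colon, 100 values kept both, 6 turned sign and 2 gained a call, Socs3 and Socs6 without wild-type library 2. Deviations of same-numbered libraries from their group means had correlations of 0.08, -0.53 and 0.06 in RKO and -0.45, -0.14 and 0.15 in colon. The second RKO libraries of both groups also shared 310 equal values. Whether libraries of the same number were paired cannot be judged from these correlations. The colon count with a replicate block was 0. In RKO, NFIL3 had a limma adjusted p of 0.103 with a replicate block, and SOCS1 did not pass. Both tables lack read counts, which limits what can be said of low genes.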
